A study of Mus musculus with 20 samples.

Results

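The comparison described here is hypothalamic RNA at night against day, over WT and KO mice together. WT mice are C57BL/6J. KO mice carry a double deletion (MADIN) of Magel2 and Ndn, 2 genes of the region lost in Prader-Willi syndrome, and all mice had free food and water in a cycle of 12 h light and 12 h dark. Day samples were taken 6 h after light on and night samples 18 h after it, in the dark phase when mice are active. Of the 20 libraries of total RNA, depleted of ribosomal RNA, 14 were used because the letter of their title and their time field give the same time (KO_day 5 has no such letter and takes the field). They are 8 day libraries (5 WT and 3 KO) and 6 night libraries (4 WT and 2 KO). The other 6 libraries, 1 WT and 5 KO, carry contradicting time labels and entered no comparison. The sources used here give neither sex nor age, nor whether each library is a separate animal, so p-values cover only the variation among these libraries, which may be technical.

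In mammals the circadian clock is a feedback loop of transcription. The activators BMAL1 (gene Arntl) with CLOCK or NPAS2 bind E-boxes and drive the Per, Cry, Nr1d1, Nr1d2 and Dbp genes. PER and CRY proteins then inhibit the activators, and the nuclear receptors REV-ERB (Nr1d1, Nr1d2) and ROR compete on elements of Arntl. The master clock of the brain, the suprachiasmatic nucleus, is a small part of the hypothalamus, and a whole-hypothalamus sample averages it with neurons and glia whose clocks may run at other phases.

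Library totals ran from 34812131 to 48697647 counts by day and from 32066289 to 38373712 at night. All 12 hypothalamus markers listed were detected, with a summed level of 717 to 1120 CPM (read counts scaled to the library total and by TMM factors). The library labelled WT_day 3 went against its genotype label, with Ndn at 30.9 CPM against 239 to 346 in the 8 other WT libraries and 0.248 to 0.744 in the 5 KO libraries, and it is stated below which of the named genes no longer passed without it. In a bulk sample, fewer cells of a type and less RNA per cell cannot be told apart.

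At night, 111 of 22820 genes tested passed (0.486%), at an adjusted p under 0.05 by edgeR's quasi-likelihood test with genotype as covariate. Of these, 61 rose (0.267% of all tested) and 50 fell (0.219%). Among those that fell were the clock output gene Dbp, the circadian repressor gene Nr1d2, the glial lipid carrier gene Fabp7 and both metallothioneins Mt1 and Mt2. Among those that rose were the clock activator gene Arntl, the retinoic acid-degrading enzyme gene Cyp26b1 and Vipr2, the receptor gene for vasoactive intestinal peptide. The changes were small. Their median was 0.28 on the log2 scale for the genes that rose and -0.29 for those that fell, and 97 of the 111 changed by less than 0.5. The median over all genes tested was 0.01. Day and night libraries did not overlap in 46 of the 111 genes, 15 higher and 31 lower at night, against 110 of all genes tested (0.482%).

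The number of genes that passed depended on single libraries, as the plot of genes by setting shows. It was 27, 32, 39, 42 and 26 without WT_day 1, 2, 3, 4 and 5. It was 43, 180, 57 and 42 without WT_night 2, 3, 4 and 5. Without KO_day 3, 4 and 5 it was 160, 102 and 75, and without KO_night 4 and 5 it was 26 and 425. Without WT_day 3, whose genotype label is in doubt, 37 of the 111 genes still passed. None of the 111 genes changed sign in any of these 14 repeats, which their choice from the same libraries favours. In all of the repeats 20 genes passed, 6 higher and 14 lower at night. With symbols other than clone names, these were Cacng8, Fat1, Gkn3, Hcfc1, Ptch1 and Spon2 among the genes that rose, and Coq10b, Dbp, Dgat2, Fabp7, Fosb, Fxyd3, Gpcpd1, Hist3h2ba, Il33, Mt1, Mt2 and Tap1 among those that fell.

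**Figure D1:**
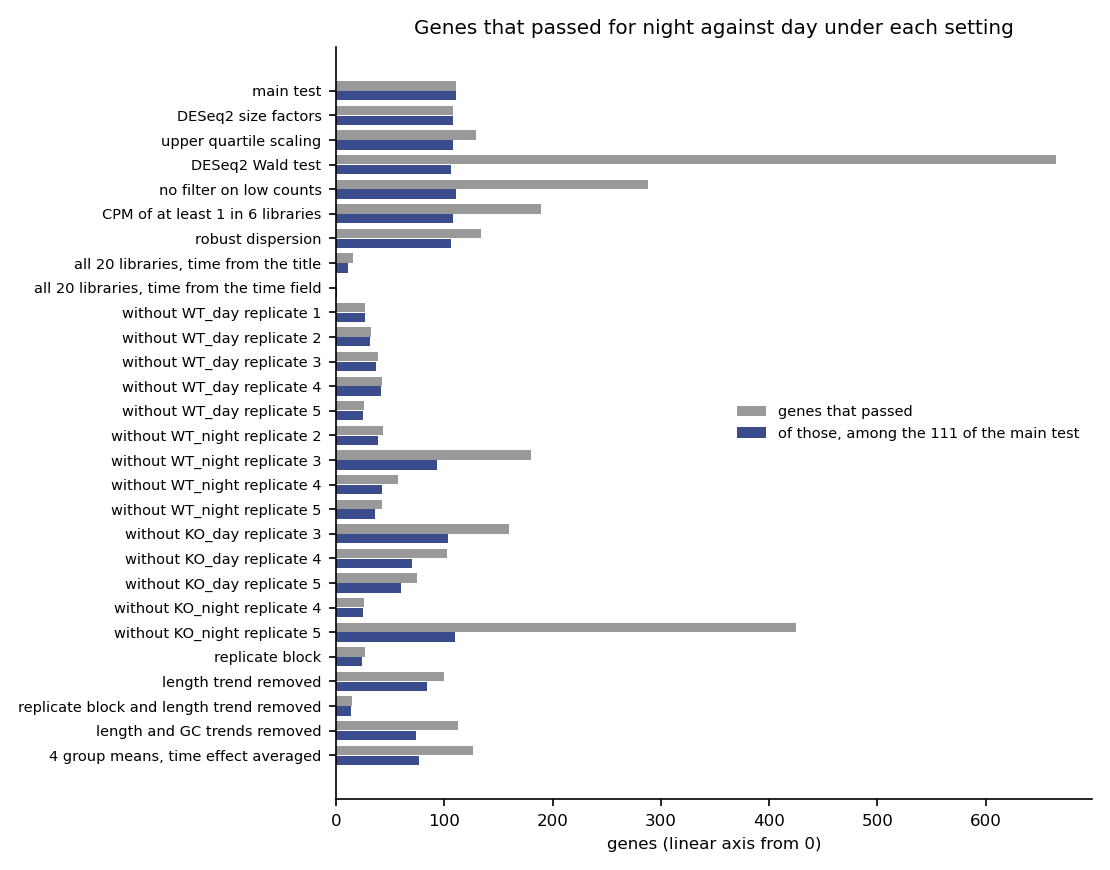
Number of genes that passed for night against day (grey bars, x axis from 0) under each setting on the y axis, and how many of them are among the 111 genes of the main test (blue bars). Leaving out KO_night 5 gave 425 genes and leaving out WT_day 5 or KO_night 4 gave 26.

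Among clock output genes, Dbp (ENSMUSG00000059824, chromosome 7, 45705088 to 45710203, GRCm38) encodes a bZIP activator that binds D-boxes and is driven through E-boxes. Its level was 28.7 to 44.0 CPM by day (median 36.4) and 21.5 to 26.5 at night (median 22.5). Every night library lay below every day library, and the fall was 1.51-fold, with a log2 change of -0.59 (SE 0.0738, edgeR adjusted p = 0.00378, n = 8 and 6). By genotype the mean was 32.5 ± 4.04 (SD, n = 5) in WT_day, 23.1 ± 1.79 (n = 4) in WT_night, 41.1 ± 2.6 (n = 3) in KO_day and 24 ± 3.57 (n = 2) in KO_night. Dbp fell in WT alone (-0.49, edgeR adjusted p = 0.0174) and in KO alone (-0.77, edgeR adjusted p = 0.0241). Without WT_day 3 its adjusted p was 0.00151 (edgeR). Its end overlaps Sphk2 on the opposite strand over 14.4% of its span, and whether the reads separate strands is not settled. The related bZIP genes Tef (-0.05) and Hlf (0.00) and the opposing repressor gene Nfil3 (0.17) did not pass, with edgeR adjusted p of 0.629, 0.98 and 0.29.

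Of the repressors of the activator complex, Bhlhe40 encodes DEC1, a bHLH repressor that competes for E-boxes. Its level was 25.5 to 29.0 CPM by day and 22.5 to 26.3 at night. The log2 change of -0.20 passed narrowly (edgeR adjusted p = 0.0458) and 5 of 6 night libraries lay below every day library. Its paralogue Bhlhe41 did not pass (-0.10, edgeR adjusted p = 0.209). Ciart, which encodes CHRONO, a repressor recruited to BMAL1, stood at 4.95 to 6.98 CPM by day and 3.84 to 5.31 at night. Its log2 difference of -0.36 missed the threshold (edgeR adjusted p = 0.0539). All of Ciart lies opposite to C920021L13Rik, so its counts are uncertain. Per1, a light- and clock-driven period gene, differed by -0.21 (edgeR adjusted p = 0.135). Per2, Cry1 and Cry2 differed by -0.03, 0.06 and -0.05, and none passed (edgeR adjusted p = 0.861, 0.468 and 0.66). Per3 is listed at 0 counts in every library and lies wholly inside Camta1 on the same strand, so it could not be measured. Of the 5 clock repressor genes tested none passed by edgeR, 2 had an unadjusted p under 0.05, and DESeq2 called 1, lower at night.

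Among the REV-ERB and ROR genes, Nr1d2 (chromosome 14, 18204054 to 18239127, GRCm38) encodes REV-ERB beta, a haem-binding repressor of Arntl. By day it stood at 119 to 130 CPM (median 127), and at night at 104 to 118 (median 109). The groups did not overlap, and the log2 change was -0.21 (SE 0.0381, edgeR adjusted p = 0.0254). Its paralogue Nr1d1, REV-ERB alpha, differed by -0.10 and did not pass (edgeR adjusted p = 0.281), with 91.3 CPM in the lowest night library and 120 in the highest day library. Rora and Rorb differed by 0.05 and -0.03 (edgeR adjusted p = 0.85 and 0.854).

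Among the activators, Arntl (chromosome 7, 113207465 to 113314126, GRCm38) moved in the opposite direction to its repressor gene Nr1d2. It stood at 25.6 to 29.6 CPM by day (median 28.0) and 30.1 to 38.9 at night (median 33.7), with no overlap. The rise was 0.28 (SE 0.0523, edgeR adjusted p = 0.027). Group means were 27.9 ± 1.79 (SD, n = 5) and 35.6 ± 2.92 (n = 4) in WT, and 28.0 ± 0.367 (n = 3) and 30.6 ± 0.629 (n = 2) in KO. The change was 0.35 in WT and 0.13 in KO, with no interaction past the threshold (edgeR adjusted p = 0.51). Npas2, the forebrain counterpart of Clock, stood at 15.4 to 22.3 CPM by day and 19.8 to 29.1 at night. Its difference of 0.26 did not pass (edgeR adjusted p = 0.0786). Clock itself, which is little rhythmic in most tissues, differed by 0.02 (edgeR adjusted p = 0.8), and Arntl2 by -0.02 (edgeR adjusted p = 0.918).

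Over the 20 tested genes of these 4 clock lists, 1 rose and 3 fell, against 0.267% and 0.219% of all genes tested. Without WT_day 3 the changes of Nr1d2, Arntl and Bhlhe40 were -0.20, 0.27 and -0.22, with edgeR adjusted p of 0.0542, 0.0598 and 0.0617. These 3 genes passed in 9, 6 and 3 of the 14 fits with 1 library left out. Of the 12 genes for kinases, ubiquitin ligases and partners that set the turnover of clock proteins, none passed by edgeR, 1 had an unadjusted p under 0.05 and DESeq2 called 0. The smallest p there belonged to Fbxl21 (-0.15) and Gsk3b (0.07).

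**Figure D2:**
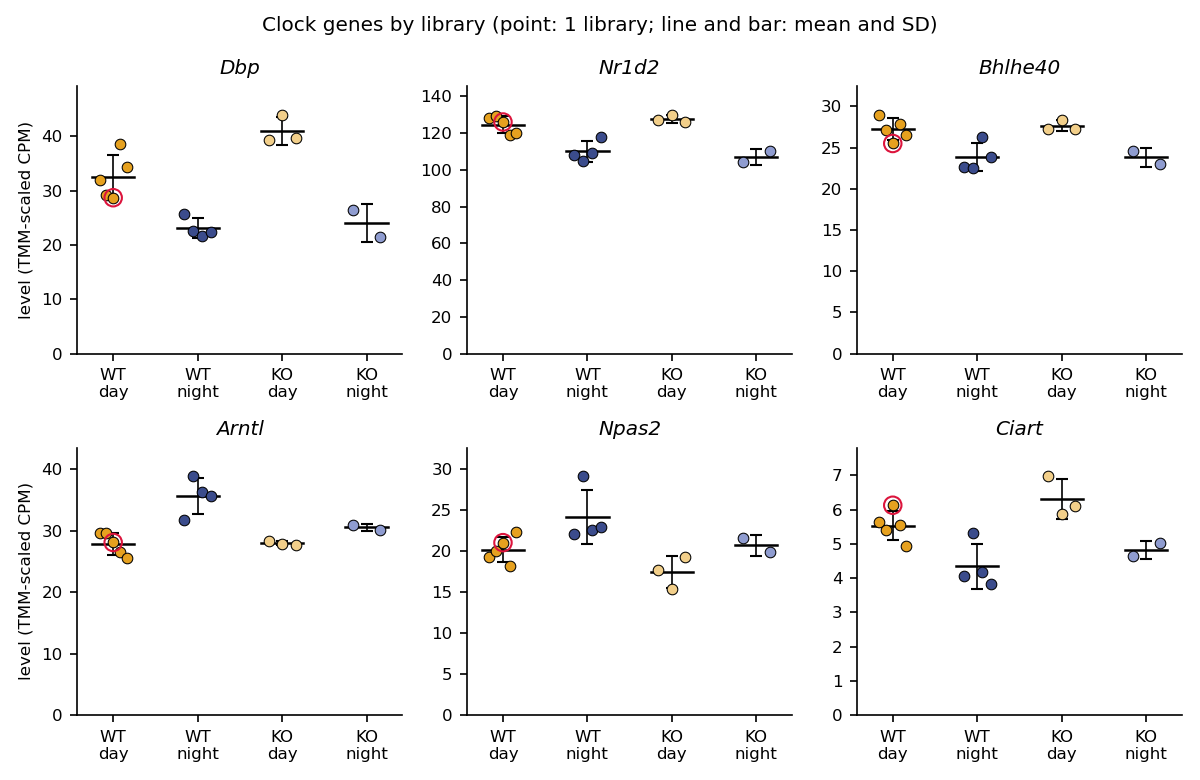
Level (TMM-scaled CPM, y axis from 0) of 6 clock genes in each of the 14 libraries, by genotype and time (x axis). Lines and bars are the mean and SD, and a red ring marks WT_day 3. Day and night points are fully apart for Dbp, Nr1d2 and Arntl and overlap for Bhlhe40, Npas2 and Ciart.

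The bases before the start of 4 of these genes are shown because the clock factors named above bind such elements. Each of the 4 windows holds at least 1 of the letter strings searched for. The windows of Dbp and Arntl hold none and are not shown. Nr1d2, Coq10b and Fabp7 fell at night, and Ciart did not pass. RefSeq windows of 250 bases before the start (GRCm38.p6), read 5′ to 3′ on the gene's strand, were searched on both strands for the E-box CACGTG, the E-prime box CACGTT, the D-boxes TTATGTAA and TTACGTAA and the ROR element core AGGTCA. Capitals mark matches, which may be the reverse complement. Nr1d2 (chr14:18239107-18239356, minus strand) holds 1 ROR core. Coq10b (chr1:55052520-55052769, plus strand) holds 1 E-box and 1 D-box, Fabp7 (chr10:57784673-57784922, plus strand) 1 ROR core, and Ciart (chr3:95882229-95882478, minus strand) 3 E-boxes.
Nr1d2: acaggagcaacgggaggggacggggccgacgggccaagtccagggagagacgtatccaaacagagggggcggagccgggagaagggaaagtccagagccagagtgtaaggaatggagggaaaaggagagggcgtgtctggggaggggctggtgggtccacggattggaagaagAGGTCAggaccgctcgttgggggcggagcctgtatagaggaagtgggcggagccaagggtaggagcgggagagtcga
Coq10b: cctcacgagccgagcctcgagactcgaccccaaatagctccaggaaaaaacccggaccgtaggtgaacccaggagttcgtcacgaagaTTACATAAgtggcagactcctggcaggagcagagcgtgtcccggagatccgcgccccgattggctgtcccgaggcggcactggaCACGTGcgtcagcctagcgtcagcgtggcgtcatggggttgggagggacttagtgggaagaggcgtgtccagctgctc
Fabp7: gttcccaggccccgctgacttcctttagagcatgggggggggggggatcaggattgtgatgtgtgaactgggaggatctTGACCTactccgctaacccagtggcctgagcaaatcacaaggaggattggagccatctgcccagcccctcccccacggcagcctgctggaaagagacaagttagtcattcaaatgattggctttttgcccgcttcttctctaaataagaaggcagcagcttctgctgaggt
Ciart: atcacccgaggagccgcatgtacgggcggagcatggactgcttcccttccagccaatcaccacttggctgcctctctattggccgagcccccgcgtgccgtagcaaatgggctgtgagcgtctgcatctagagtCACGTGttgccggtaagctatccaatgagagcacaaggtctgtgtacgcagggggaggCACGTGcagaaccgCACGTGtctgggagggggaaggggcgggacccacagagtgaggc
In the windows of Dbp and Arntl these letters were not found. Among the 111 genes, 75 had a window. An E-box was in 3 of 35 windows of genes that fell (Coq10b, Slc16a1 and Sephs2, 8.57%) and in 0 of 40 of genes that rose, against 7.47% of the 14216 genes tested with a window. A ROR core was in 14.3% of windows of genes that fell and 7.5% of those that rose, against 11.3%. The E-prime box was in 5.71% and 7.5%, against 4.28%. A D-box was in 2 windows of each (Coq10b and Cldn10 lower, Gkn3 and Myo18a higher at night), which is 5.71% and 5.0% against 0.661% of genes tested. The cAMP short element TGACG, part of the full element TGACGTCA, was in 40.0% of windows of genes that fell and 15% of those that rose, against 23.8%. The full element was in 2.86% and 0% against 2.39%, the heat shock element GAANNTTC in 8.57% and 2.5% against 5.25%, and the glucocorticoid core site AGAACA in 5.71% and 10% against 12.0%. These shares are descriptions of the letters in the windows.

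Beyond the clock, Fabp7 fell at night. This gene (ENSMUSG00000019874, chromosome 10, 57784881 to 57788450, GRCm38) encodes the fatty acid-binding protein of astrocytes and radial glia. Its level was 18.1 to 23.2 CPM by day (median 21) and 9.97 to 16.7 at night (median 12.4), without overlap. The fall was 1.62-fold, a log2 change of -0.69 (SE 0.092, edgeR adjusted p = 0.0038), and it was -0.65 in WT and -0.77 in KO. Coq10b, whose product binds coenzyme Q in mitochondria, stood at 17.2 to 21.4 CPM by day (median 19.8) and 12.6 to 15.8 at night (median 14.9). Its log2 change was -0.41 (SE 0.0559, edgeR adjusted p = 0.0038), and it passed in WT alone (-0.34, edgeR adjusted p = 0.0273) and in KO alone (-0.53, edgeR adjusted p = 0.0425). Dbp and Coq10b were the only genes that passed in both genotypes taken separately.

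Metallothioneins bind zinc and copper and are induced by glucocorticoids and metals. Mt2 fell from 27.7 to 47.6 CPM by day (median 32.1) to 18.6 to 24.8 at night (median 20.5). This is a log2 change of -0.72 (SE 0.11, edgeR adjusted p = 0.01) without overlap. Mt1 fell from a median of 86.2 to 63.5 CPM (-0.42, edgeR adjusted p = 0.0177). Mt2 passed in WT alone (-0.93, edgeR adjusted p = 0.002) and not in KO alone (-0.35, 0.432). The same held for Mt1 (-0.50 in WT, edgeR adjusted p = 0.0174, and -0.27 in KO, 0.433). Neither interaction passed (edgeR adjusted p = 0.427 for Mt2 and 0.64 for Mt1). The spread of Mt2 by day was in WT, where single libraries ran from 27.7 to 47.6 CPM, against 30.5 to 32.6 in KO_day. Mt2 lies largely opposite to the antisense gene Gm45774 (82.8% of its span), which passed too with a change of -0.71. In 7 such pairs both genes on opposite strands passed (the other coding partners are Txnip, Rgs16, Rpl22l1, Pllp, Maf and Adgrl1), and in these the strand of the reads cannot be told apart.

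Fosb and Egr1 are immediate early genes, transcription factor genes switched on within minutes of neuronal firing. Fosb stood at 0.661 to 2.17 CPM by day (median 1.35) and 0.314 to 0.639 at night (median 0.538), a low level that rests on as few as 11 counts in a library. It fell by 1.41 on the log2 scale (SE 0.229, edgeR adjusted p = 0.0104), with -1.84 in WT and -0.54 in KO. Egr1 fell from 5.14 to 7.2 CPM by day to 2.8 to 5.21 at night (-0.50, edgeR adjusted p = 0.0425). Txnip, the thioredoxin-binding regulator of glucose uptake, had a change of -0.49 (edgeR adjusted p = 0.0425), which was -0.71 in WT and -0.06 in KO. Its means were 27.4 ± 3.76 (SD, n = 5) and 16.8 ± 2.06 (n = 4) in WT, and 15.6 ± 1.78 (n = 3) and 14.9 ± 0.432 (n = 2) in KO. The interaction of Txnip did not pass (0.65, SE 0.167, edgeR adjusted p = 0.287). Without WT_day 3, Egr1 and Txnip no longer passed (edgeR adjusted p = 0.0748 and 0.0808). They passed in 4 and 3 of the 14 fits with 1 library left out.

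The other falls named by the rule for the largest changes ran from -0.49 to -0.33. Tap1, a peptide transporter of antigen presentation, fell from a median of 3.6 to 2.6 CPM. Rgs16, a regulator of G protein signalling that is rhythmic in the suprachiasmatic nucleus, fell from 11.6 to 8.5 (-0.44, edgeR adjusted p = 0.0425) without overlap. Il33, which encodes a nuclear cytokine of glia, fell from 42.3 to 33.9 (-0.33, edgeR adjusted p = 0.0153), also without overlap. Snhg5 (a snoRNA host gene), Haus1 (an augmin subunit), Tmem218, Rpl22l1 and the pseudogene Rpl17-ps3 changed by -0.43, -0.42, -0.33, -0.39 and -0.41. Without WT_day 3 the edgeR adjusted p was 0.0808 for Rgs16, 0.0761 for Snhg5 and 0.0837 for Tmem218. It was 0.0547 for Rpl22l1 and 0.0877 for Rpl17-ps3, while Tap1, Il33 and Haus1 still passed. Haus1 passed in 11 of the 14 fits with 1 library left out, and Tap1 and Il33 in all 14. Outside that rule, and chosen after their values were seen, Gpcpd1 and Dgat2, enzymes of phospholipid and triglyceride metabolism, changed by -0.26 and -0.27 and passed whichever library was left out.

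Of the genes higher at night, Gkn3 (chromosome 6, 87383256 to 87388935, GRCm38), a gastrokine gene known in the brain as a marker of arterial endothelium, stood at 0.537 to 0.964 CPM by day (median 0.748) and 1.24 to 2.35 at night (median 1.44). The groups did not overlap, and the change was 1.10 (SE 0.176, edgeR adjusted p = 0.01). Cyp26b1, whose enzyme breaks down retinoic acid, stood at 0.914 to 3.11 CPM by day (median 1.76) and 2.61 to 8.67 at night (median 3.84), a change of 1.24 (SE 0.255, edgeR adjusted p = 0.0396). The value of 8.67 is WT_night 2, and the other night libraries reached 3.96. Vipr2, the VPAC2 receptor gene through which suprachiasmatic neurons are synchronised, stood at 4.32 to 5.71 CPM by day and 4.96 to 9.9 at night. Its rise was 0.49 (SE 0.107, edgeR adjusted p = 0.0425), and 5 of 6 night libraries lay above every day library. It lies opposite to Gm20658 over 52.4% of its span. Without WT_day 3, Gkn3 passed (edgeR adjusted p = 0.0231), and Cyp26b1 and Vipr2 did not (0.0748 and 0.0877). Gkn3 passed in all 14 fits with 1 library left out, Cyp26b1 in 5 and Vipr2 in 3.

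Gli1, the transcription factor gene that reports hedgehog signalling, rose by 0.44 (edgeR adjusted p = 0.0297), from a median of 3.49 to 4.68 CPM. It overlaps Arhgap9 on the opposite strand, and without WT_day 3 its adjusted p was 0.0719 (edgeR). Ptch1, the hedgehog receptor gene and another target of that pathway, was chosen after its values were seen. It stood at 109 to 128 CPM by day (median 113) and 131 to 150 at night (median 142), with a change of 0.29 (SE 0.0397, edgeR adjusted p = 0.0038) and no overlap. The change of Ptch1 was 0.29 in WT and 0.30 in KO.

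The neuregulin receptor gene Erbb3, the homeobox gene Nkx6-2 and, chosen after its values were seen, the bHLH gene Olig2 rose by 0.41, 0.35 and 0.31 (edgeR adjusted p = 0.0425, 0.0297 and 0.0177). Olig2 stood at 15.2 to 19.2 CPM by day and 20 to 23.3 at night. Without WT_day 3, Olig2 passed (edgeR adjusted p = 0.0423), and Erbb3 and Nkx6-2 did not (0.0837 and 0.0542). Olig2 passed in 13 of the 14 fits with 1 library left out, Nkx6-2 in 6 and Erbb3 in 3. All 3 are known in cells of the oligodendrocyte lineage, and Pllp, a myelin protein gene, fell (-0.24). Of the mature oligodendrocyte markers none of 8 genes passed by edgeR (1 with an unadjusted p under 0.05, 0 by DESeq2) and the median was -0.02. Of 6 precursor markers 0 passed by edgeR, 2 had an unadjusted p under 0.05 and DESeq2 called 1, higher. All 6 were higher at night, with a median of 0.09, and their summed level was higher by 0.10 on the log2 scale (exact permutation p = 0.0397, adjusted 0.143), whose part in the rises above was not tested.

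The other named rises were between 0.33 and 0.58. Trabd2b, which encodes a protease that inactivates Wnt ligands, rose from a median of 3.83 to 5.78 CPM (0.58, edgeR adjusted p = 0.0398). Fzd8, a Wnt receptor gene, rose from 4.92 to 6.33 (0.34, edgeR adjusted p = 0.0297) without overlap. The ephrin receptor gene Ephb3 rose by 0.43, the transcription factor gene Maf by 0.34, the lipid transporter gene Abca7 by 0.33 and the actin-binding Synpo2 by 0.34. Cpsf4l, Impg2 and Vstm4 rose by 0.41, 0.40 and 0.34. Without WT_day 3 the edgeR adjusted p was 0.0764 for Trabd2b, 0.0542 for Fzd8 and 0.0791 for Ephb3. It was 0.0661 for Abca7, 0.0751 for Impg2 and 0.0748 for Vstm4. Maf, Synpo2 and Cpsf4l still passed without that library. Of the 14 fits with 1 library left out, however, Maf and Cpsf4l passed 6 each and Synpo2 passed 3. Spon2, an extracellular matrix gene with a mean level of only 0.334 CPM, had the largest rise of all (1.36, edgeR adjusted p = 0.01) and, like Cacng8 (0.26), an auxiliary AMPA receptor subunit gene, Fat1 (0.22) and Hcfc1 (0.21), was chosen after its values were seen.

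**Figure D3:**
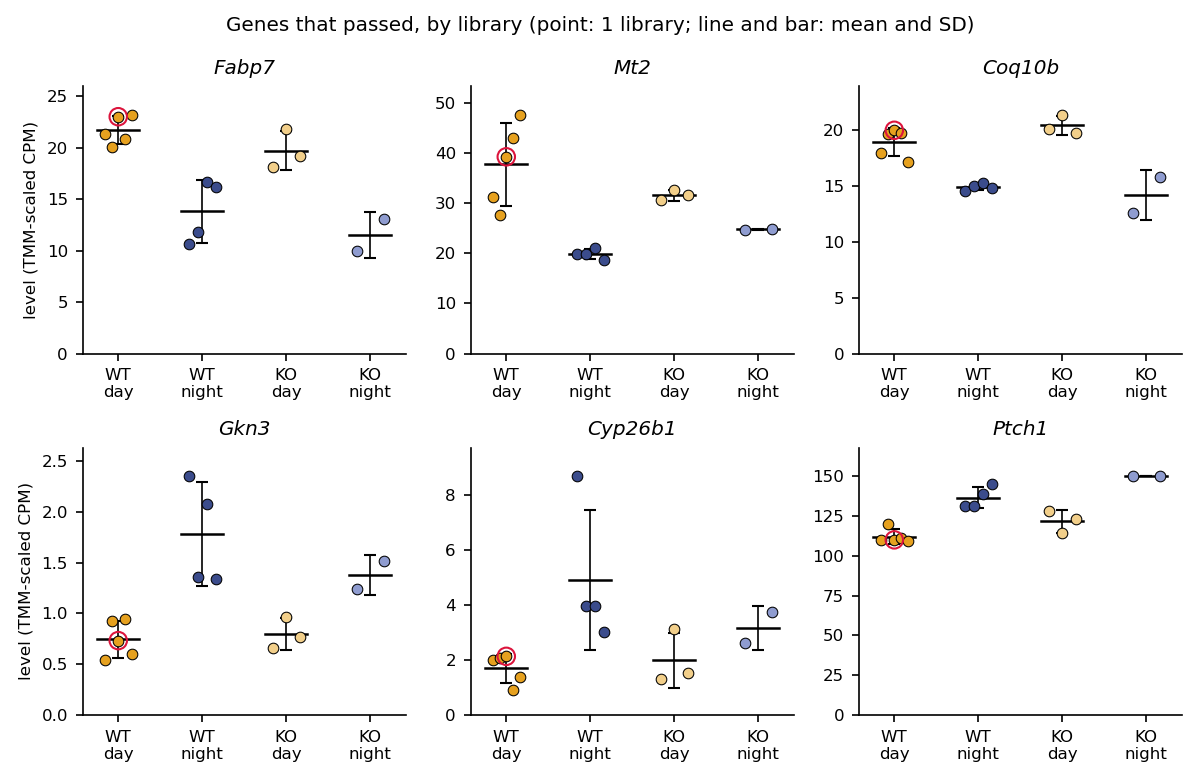
Level (TMM-scaled CPM, y axis from 0) in each of the 14 libraries of 3 genes that fell at night (Fabp7, Mt2, Coq10b) and 3 that rose (Gkn3, Cyp26b1, Ptch1), by genotype and time. Lines and bars are the mean and SD, and a red ring marks WT_day 3. For Cyp26b1 the highest night point is 8.67 CPM, and for the other 5 genes day and night do not overlap.

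The genotypes were then compared. Taken alone, WT had 104 genes that passed (0.456% of all tested), 65 higher and 39 lower at night, and KO, with 3 against 2 libraries, had 11 (0.0482%), 8 higher and 3 lower. Of these, 44 and 3 were among the 111 genes of the joint test. All 111 had the same sign in both genotypes, which their choice from the joint test favours, and 57 of them changed more in WT. The interaction of genotype and time passed for 0 genes (0%), the smallest adjusted p being 0.163 (edgeR), with 2138 genes at an unadjusted p under 0.05. Leaving out 1 library moved the WT count to between 9 (without WT_day 5) and 134 (without KO_night 4), the KO count to between 1 (without KO_day 4) and 289 (without KO_night 5), and the interaction to between 0 and 4 (without WT_night 4 or KO_night 4). Without WT_day 3 these counts were 31, 14 and 2. No difference between the genotypes in their response is shown for any gene in the fit of all 14 libraries. Among named genes, values stood well apart for Fosb (-1.84 in WT and -0.54 in KO, interaction adjusted p = 0.389 by edgeR) and Txnip (-0.71 in WT and -0.06 in KO).

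**Figure D4:**
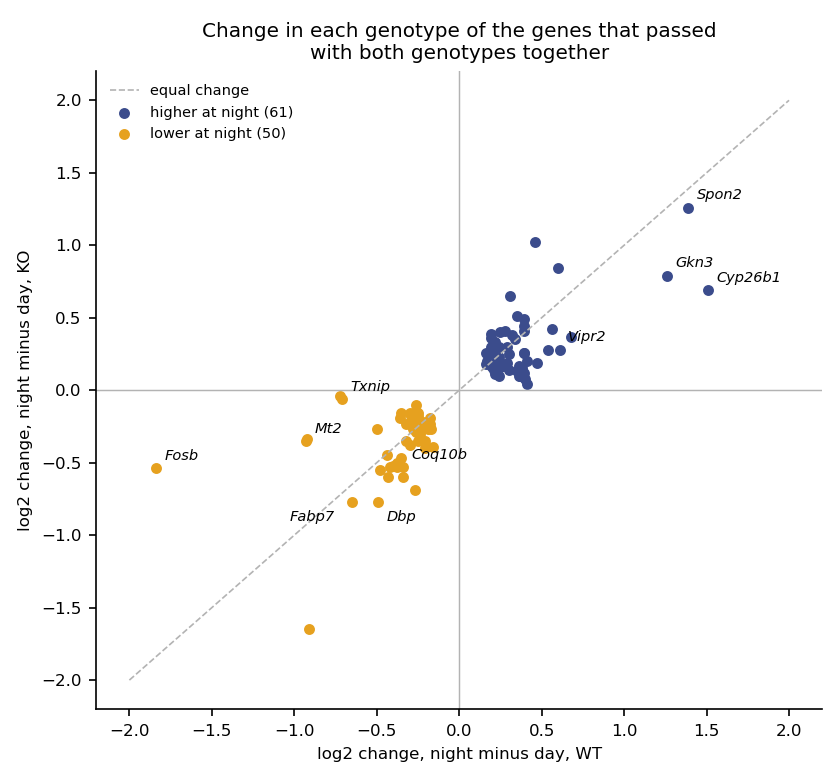
Log2 change from day to night in WT (x axis) and in KO (y axis) of the 111 genes that passed in the joint test, 61 higher (blue) and 50 lower (orange) at night. All points lie in the lower left or upper right corner, a pattern that choosing them from both genotypes together favours, and the dashed line marks equal change.

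Gene groups were then described by their counts. Of 20 activity-induced immediate early genes, 2 fell (Fosb and Egr1), 0 rose and 16 were lower at night, with a median of -0.20. Fos and Junb differed by -0.49 and -0.27 and did not pass (edgeR adjusted p = 0.0985 and 0.0763). The median was -0.28 in WT and -0.03 in KO. Of 18 glucocorticoid-induced genes, 2 fell (Mt1 and Mt2) and 13 were lower, with a median of -0.18, which was -0.41 in WT and 0.18 in KO. Zbtb16 and Map3k6, with differences of -0.59 and -0.43, did not pass (edgeR adjusted p = 0.125 and 0.266). Zbtb16 reached 65.1 CPM in WT_day 3 against 22.2 to 39.3 in the other day libraries, and without WT_day 3 the list's median was -0.08.

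Of 16 heat shock genes 14 were higher at night, with a median of 0.12, which was 0.06 in WT and 0.29 in KO. By edgeR 0 passed, 6 had an unadjusted p under 0.05, and DESeq2 called 2, higher at night. Without WT_night 3, 5 rose and the median was 0.18, and without a filter on low counts 3 rose. Hspb1 and Hspa1b, inducible chaperone genes, differed by 0.67 and 0.62 (edgeR adjusted p = 0.124 and 0.169), and Cryab and Hsph1 by 0.29 and 0.30 (0.0812 and 0.0967). Cirbp and Rbm3, RNA-binding genes induced by cooling, differed by -0.28 and -0.09 (edgeR adjusted p = 0.109 and 0.661). The median of these genes was -0.03 in WT and -0.47 in KO. Of 19 genes of the unfolded protein response 0 passed by edgeR, 1 had an unadjusted p under 0.05 (DESeq2 called 1, higher), and their median was 0.08 (-0.01 in WT and 0.22 in KO).

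Of 76 cytosolic ribosomal protein genes, 75 were lower at night, with a median of -0.14 against 0.01 over all genes. None passed by edgeR, 48 had an unadjusted p under 0.05, and DESeq2 called 8, all lower. Rpl39 and Rps13 had the smallest p, with differences of -0.28 and -0.23 (edgeR adjusted p = 0.0549 and 0.0596). Of 92 nuclear genes for oxidative phosphorylation 81 were lower, with a median of -0.10, and 1 fell, the complex I subunit gene Ndufb6 (-0.23, edgeR adjusted p = 0.0416, and 0.0808 without WT_day 3). The 13 mitochondrially encoded protein genes had a median of -0.08. Exon length and base composition differed along with direction. The median exon length was 6680 bases in the genes that rose and 2931 in those that fell, against 3195 in all tested, and their GC content was 54.8% and 47.4% against 49.1%. With trends of length and GC removed 113 genes passed, 74 of them among the 111, and the median of the ribosomal protein genes was -0.12.

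Hypothalamic functions showed few changes. Of 13 genes of the suprachiasmatic nucleus, Vipr2 rose and Rgs16 fell, and Prok2, an output peptide gene of that nucleus, differed by -0.50 without passing (edgeR adjusted p = 0.222). Lhx1 differed by 0.18. Of 21 feeding peptides and receptors 0 passed by edgeR, 5 had an unadjusted p under 0.05, and DESeq2 called 1 higher and 1 lower. The leptin receptor gene Lepr differed by 0.25, the orexigenic Agrp by 0.14 and Pmch, the melanin-concentrating hormone gene, by -0.26 (edgeR adjusted p = 0.0941, 0.138 and 0.136). None of 11 hypophysiotropic and magnocellular peptide genes passed by edgeR, 2 had an unadjusted p under 0.05, and DESeq2 called 0. Gnrh1 led them (-0.33, edgeR adjusted p = 0.16). Nor did any of 13 adenosine, histamine and sleep-linked genes pass by edgeR, with 3 at an unadjusted p under 0.05 and 0 called by DESeq2. There Hnmt and Adk, enzymes that clear histamine and adenosine, each differed by -0.15. The sterol synthesis enzyme gene Msmo1 differed by -0.16 (edgeR adjusted p = 0.136). Of 15 genes of glucose and glycogen metabolism, Slc16a1, the lactate transporter gene of vessels and glia, fell from a median of 41.9 to 33.9 CPM (-0.26, edgeR adjusted p = 0.0177) without overlap.

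**Figure D5:**
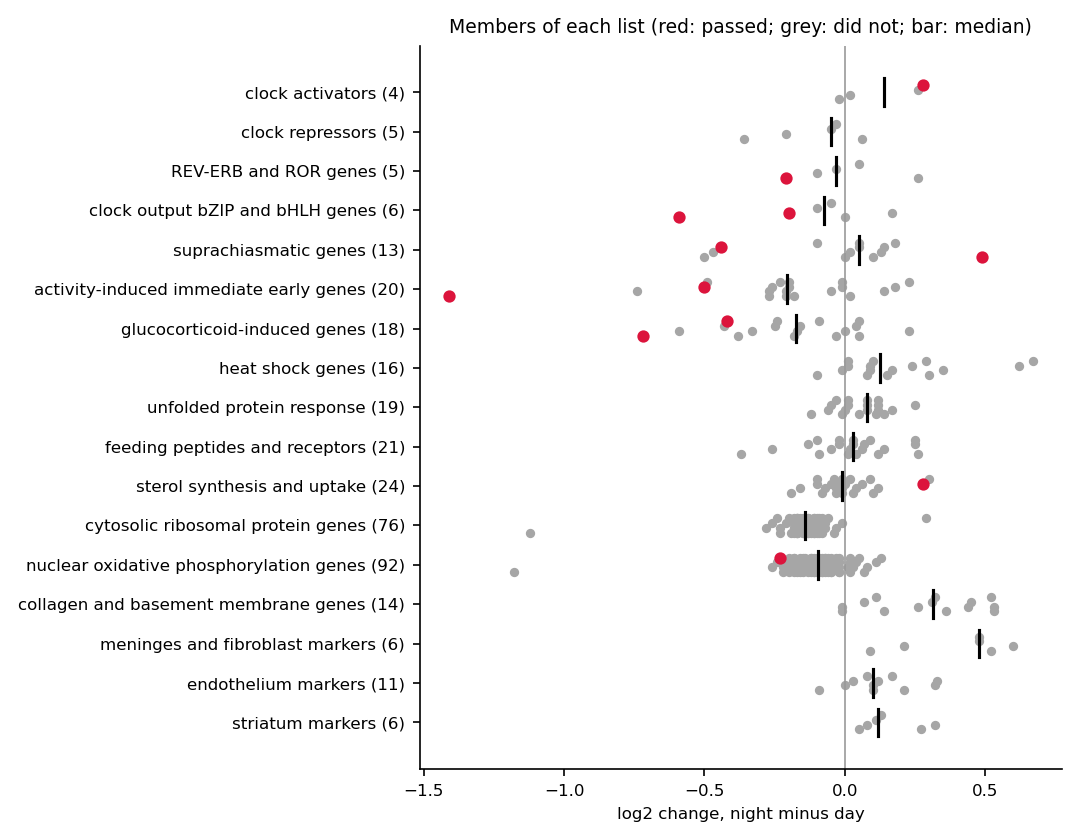
Log2 change from day to night (x axis) of each tested member of 17 gene lists (y axis, number of members in brackets). Red points passed, grey points did not, and black bars are medians. The ribosomal protein genes cluster just below 0 with a median of -0.14, and the collagen genes lie mostly above it with a median of 0.32.

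Of the 16 marker lists, the summed levels of 2, endothelium and striatum, differed between night and day past an adjusted p of 0.05. The summed level of 11 endothelium markers was 176 to 203 CPM by day and 201 to 209 at night (exact permutation of time within genotype, two-sided, p = 0.00476, adjusted over 18 library measures 0.0428, higher in the night groups of both genotypes by median change, 0.11 and 0.17). No single endothelium marker passed by edgeR (5 of 11 with an unadjusted p under 0.05, 1 called by DESeq2), and Kdr and Cdh5 differed by 0.32 and 0.33. The rise of the arterial gene Gkn3 stands beside these values. The 6 measured meninges and fibroblast markers had a median of 0.48 (0.51 in WT and 0.1 in KO) and were all higher in the joint test. Their list summed to 144 to 619 CPM by day and 474 to 882 at night (exact permutation p = 0.0746, adjusted 0.218), and of its 7 genes Igf2 is listed at 0. Of 14 collagen and basement membrane genes 12 were higher, with a median of 0.32 that was 0.49 in WT and 0.05 in KO. By edgeR 0 passed, 11 had an unadjusted p under 0.05, and DESeq2 called 1. Col1a2 and Nid1 differed by 0.53 and 0.32 (edgeR adjusted p = 0.136 and 0.124), and Foxc1 by 0.48 (edgeR adjusted p = 0.0585). The part of vessel and meningeal tissue in these and the other results was not tested.

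The 6 striatum markers summed to 66.2 to 71.1 CPM by day and 71.9 to 84.9 at night, without overlap. The exact permutation p of 0.000794 is the smallest that 1260 arrangements can give (adjusted 0.0143). Their median change was -0.03 in WT and 0.47 in KO, and 0.01 over both genotypes without KO_night 5. Pituitary markers ran from 23.1 to 794 CPM by day, the highest in WT_day 1, and from 15.8 to 165 at night (exact permutation p = 0.693). Summed markers of neurons, astrocytes, oligodendrocytes and microglia differed by 0.02 or less on the log2 scale (adjusted p of 0.544 or more by exact permutation). Mitochondrial rRNA took 19.5% to 22.6% of the counts by day and 15% to 22.1% at night. Library totals were lower at night (exact permutation p = 0.0198, adjusted 0.114). The part of dissection, depth and RNA composition in the 111 genes was not tested.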

How the data were processed

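Whole-number read counts per gene were deposited by the authors for each library. They were made with HISAT2 and featureCounts on mm10, per the submitters' processing notes; versions, annotation and strand setting are not given in the sources used here. In the 1 table without a header the deposited values are read as the same counts (its unit is entered as other). Gene names and positions are from GENCODE M21 (GRCm38), matched for 53706 of 53801 identifiers. The labels call the libraries strand-specific. Coding genes nested in another gene had 0 counts in 346 of 347 cases where both share a strand and in 36 of 781 where they do not. These counts differ with the annotated strand, so the counting treated the strands differently. Whether the reads kept their strand is a separate point and was not tested. Mt2 and Gm45774, which overlap on opposite strands, had mean levels of 29.4 and 29.6 CPM. Txnip and Gm15441, another such pair, had 20.0 and 20.3 CPM, while Maf and Gm15655 had day medians of 10.7 and 3.69 CPM. Both genes of each of the 7 pairs that passed are counted in the 111, so their calls may repeat 1 signal. Whether the reads separate strands is not settled, so overlapping genes are uncertain.

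Groups follow the labels; replicate numbers only name libraries. Within groups, chi-square per degree of freedom between libraries was 5.58 to 53.7 over 20 pairs, so none was counted as a duplicate. Genes were tested with edgeR 4.0.16 in R 4.3.3 (quasi-likelihood F-test, TMM factors 0.945 to 1.09, filterByExpr with a minimum count of 10), with genotype and time as terms and Benjamini-Hochberg adjustment over all 22820 genes. A gene passed at an adjusted p under 0.05. WT, KO and their interaction come from 1 fit of the 4 group means. SEs are the log2 change divided by the square root of F. Levels are TMM-scaled CPM. The test was also run on simulated counts, and no statement here rests on that run. Library measures were compared by exact permutation of time within genotype. Alternatives included other scalings and filters, DESeq2 1.42.0, left-out libraries, a replicate block, and length and GC offsets.

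The comparison, the gene lists and the naming rule were chosen with earlier results of these data known. Named are all tested clock genes of 4 lists, the 15 largest rises and falls among genes that passed with a mean of at least 1 CPM, no clone name and 1 sign in both genotypes, up to 4 members of each other list by p, and Ndn and Magel2. A few genes under this rule are left out of the text, and some lists are given by their counts only.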

Additional observations from a re-analysis of the deposited data

Results flagged for a closer look

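Among the 4 or 5 WT libraries of a time, 190 sets of values were checked for 1 library far from the others, and 9 were found. The limit used, Dixon's 95% critical value, is passed by chance in about 1 in 20 sets. Ndn (30.9 CPM, others 248 to 274) and Magel2 (2.15 CPM, others 15.6 to 17.9) were low in WT_day 3, against that library's genotype label. Cyp26b1 was high in WT_night 2 (8.67 CPM, others 3.03 to 3.96). Among clock genes, Npas2 was high in WT_night 3 (29.1 CPM, others 22.1 to 22.9) and Per1 low in WT_night 5 (12.6 CPM, others 14.7 to 14.9). Junb was low in WT_day 4 (15.2 CPM, others 17.7 to 18.5), Ptch1 high in WT_day 2 (120.0 CPM, others 109 to 111), Agrp low in WT_night 4 (26.9 CPM, others 28.4 to 28.5) and Gnrh1 high in WT_night 2 (2.54 CPM, others 1.78 to 1.86).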

How the results depend on the processing

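Of the 111 genes that passed, none changed sign under any of the 27 alternatives, which their choice from these libraries favours. Among them, 8 passed in all 25 fits counted of the 14 libraries or of 13 of them. The number of genes that passed did change. It was 665 with DESeq2's Wald test (106 of the 111 among them), 288 without a filter on low counts (111), 189 with at least 1 CPM in 6 libraries (108; 73 higher and 116 lower), and 26 to 425 with 1 library left out. With all 20 libraries 16 passed with time from the title (11 of the 111) and 1 (Spon2) with time from the time field. The replicate block gave 27 (24 of the 111), and with the length trend removed too 15. Same-numbered libraries correlated above 0.1 in 2 of 16 pairs, so the numbers are not taken as pairs. DESeq2 size factors, upper quartile scaling, robust dispersion, length alone, length with GC and averaged group means gave 100 to 134. In WT 267 passed without a filter, 61 and 0 with all 20 libraries by title and by field, 30 with the replicate block, 62 with the length trend removed, and 9 to 134 with 1 library left out. In KO it was 127 without a filter, 0 by field, 4 with the replicate block and 1 to 289 with 1 library left out. The interaction gave 34 without a filter and 0 to 4 with 1 library left out. The causes were not tested.

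Changes of sign were seen for genes that did not pass. By time field these were Arntl2 (0.04), Per2 (0.03), Rorb (0.06) and Hlf (0.04), by title Rora (-0.04), with the length trend removed Clock (-0.02, and -0.02 with the replicate block), and with averaged group means Magel2 (-0.22). With 1 library left out Arntl2 ran from -0.08 to 0.03, Per2 from -0.12 to 0.01, Rora from -0.05 to 0.12 and Hlf from -0.03 to 0.05.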

Other observations

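The 6 libraries with contradicting time labels entered no group. Their levels of genes that differed between the other day and night libraries are given as values, scaled with all 20 libraries. For Dbp the day libraries lay at 28.8 to 44.1 CPM and the night libraries at 21.5 to 26.6. The WT library titled night stood at 25.7, the 2 KO libraries titled day at 36.1 and 37.1, and the 3 KO libraries titled night at 26, 26.7 and 36.5. For Fabp7 the ranges were 18.2 to 23.2 by day and 9.97 to 16.8 at night, and the same 6 libraries stood at 10.8, then 19.6 and 19.5, then 14.4, 12.2 and 20.2. For Gkn3 they were 0.537 to 0.965 and 1.24 to 2.35, and the 6 libraries stood at 2.0, then 0.78 and 0.701, then 2.02, 2.87 and 0.883. For Arntl they were 25.6 to 29.6 and 30.1 to 38.9, and the 6 stood at 31.2, then 30.4 and 30.4, then 29.0, 26.7 and 25.9. No library was given a time from these values.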
